A study of Danio rerio with 6 samples.

Results

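Transcripts of the circadian repressors ciarta, nfil3-5, per2 and per3 were described in the forebrain of sexually mature male zebrafish, in the telencephalon. They were taken as every probe set whose single gene symbol on the array's annotation was ciarta, nfil3-5, per1b, per2 or per3. This gave 5 probe sets for 4 of the 5 listed genes, out of 15502 probe sets and 8793 named genes. The gene per1b had 0 probe sets and is not analysed here. Of the 4 genes, ciarta and nfil3-5 had been picked because they changed in opposite directions on these same arrays, so their differences between groups are a description and carry no test.

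The treated males were kept for 10 days with 200 µg/L of fadrozole, a drug that blocks aromatase, and the other group was labelled control. Each group had 3 arrays, and each array was hybridised with biotin-labelled RNA from a pool of about 30 telencephalons. No strain or exact age, and no time of day at collection, is given in the labels used here. The comparison asks which telencephalic transcripts differ when the conversion of androgens to estrogens is inhibited in males.

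The circadian clock of vertebrate cells is a transcriptional feedback loop. CLOCK and BMAL proteins bind E-boxes and switch on genes for their own repressors, the period and cryptochrome proteins, whose accumulation then shuts the loop down until they are degraded. CIART, also called CHRONO, is a further repressor of CLOCK and BMAL, known from mouse. NFIL3, also called E4BP4, is a basic leucine zipper repressor that competes at D-box elements with the activators TEF, DBP and HLF in mammals. In zebrafish many tissues hold clocks that light sets directly, and per2 is a light-induced period gene. Many of these transcripts rise and fall over the day.

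The files hold, for each probe set, a linear ratio to the median of the 3 control arrays, so 1 control array is always at exactly 1. These ratios keep fold changes but not brightness, so probe sets near background cannot be recognised and the level of 1 gene cannot be set against that of another. Levels below are log2 ratios after removal of each array's overall shift, which ran from -0.14 to 0.25. Values after ± are standard errors (SE) from the limma fit, except where marked SD. That fit had 3 arrays in each group, except where an array is said to be left out. Standard errors for replicate 2 against replicates 1 and 3 come from another limma fit, with the group as a term. Because brightness is lost, the telencephalic origin could not be checked by marker level. The 8 measured neuron markers differed between the groups by -0.16 to 0.20 on the log2 scale.

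The repressor gene ciarta was 3.37-fold lower and nfil3-5 was 1.76-fold higher after fadrozole than in controls. The period genes per2 and per3 had differences smaller than their standard errors. For ciarta and nfil3-5 the arrays of the groups did not overlap, and for per2 and per3 they did. In the same comparison the groups did not overlap for 7.82% of all named genes, 0% of them passed limma's adjusted test and 4.08% changed by 1.5-fold or more at an unadjusted p under 0.05. Among all probe sets that last share was 4.23%. Since ciarta and nfil3-5 were picked on this contrast, nothing is read from their place among these shares.

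**Figure D1:**
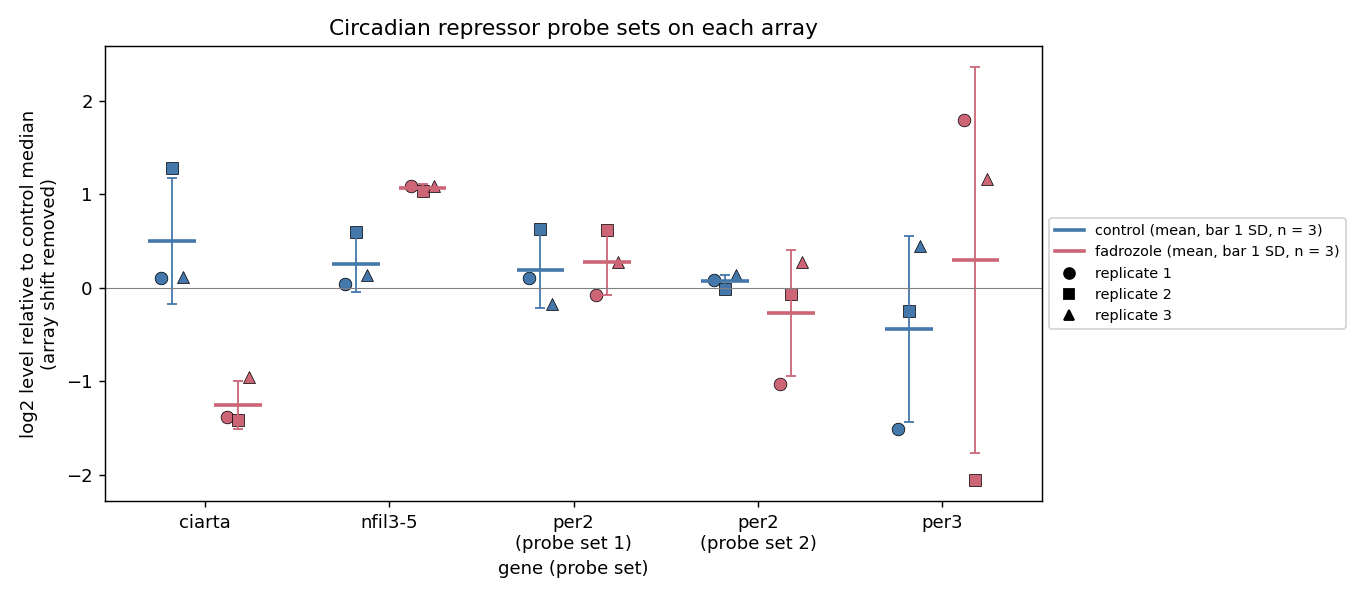
Log2 level of each of the 5 probe sets relative to the control median, with the array shift removed, on 3 control and 3 fadrozole arrays. Points are arrays, with shapes for replicate numbers, horizontal lines are means and vertical bars are 1 SD. The 3 fadrozole arrays lie below all controls for ciarta and above all controls for nfil3-5, and the groups overlap on both per2 probe sets and on per3.

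For ciarta, whose product in mouse binds BMAL1 and represses its activity, the deposited ratios were 1, 2.90 and 0.983 on control replicates 1, 2 and 3. They were 0.365, 0.418 and 0.484 on fadrozole replicates 1, 2 and 3. All 3 fadrozole arrays thus lay well below every control array, and control replicate 2 stood above the other controls. With the shifts removed, the mean log2 level was 0.50 ± 0.68 (SD, n = 3) on control and -1.25 ± 0.26 (SD, n = 3) on fadrozole arrays, a difference of -1.75 ± 0.40. Without control replicate 2 the difference was -1.36 ± 0.28. Its same-numbered pairs differed by -1.496, -2.69 and -1.06 for replicates 1, 2 and 3, a direction that the lack of overlap fixed.

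For nfil3-5, 1 of several zebrafish genes related to mammalian NFIL3, the deposited ratios were 0.950, 1.81 and 1 on control replicates 1, 2 and 3. On fadrozole replicates 1, 2 and 3 they were 2.04, 2.27 and 2.00. The fadrozole arrays lay close together, and control replicate 2 was again the highest control. The mean log2 level was 0.26 ± 0.30 (SD, n = 3) on control and 1.07 ± 0.04 (SD, n = 3) on fadrozole arrays, a difference of 0.82 ± 0.25. Between same-numbered arrays nfil3-5 was higher by 1.06, 0.43 and 0.96 for replicates 1, 2 and 3, a direction fixed in the same way. The smallest of these gaps was in the pair with control replicate 2, the same pair in which ciarta had its largest gap.

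The ratio of nfil3-5 to ciarta within an array is free of any constant shift between arrays. On the log2 scale, and relative to the control medians, it was -0.07, -0.68 and 0.02 on control replicates 1, 2 and 3 and 2.48, 2.44 and 2.04 on fadrozole replicates 1, 2 and 3. The groups were separated by a mean of 2.57, with SDs of 0.38 on control and 0.24 on fadrozole arrays. This ratio joins both picked genes and is a description only.

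The related gene nfil3-6, which was not picked, was measured by 2 probe sets. Its log2 levels were 0.11, 0.50 and -0.66 on control replicates 1, 2 and 3 and 0.27, 0.61 and 0.33 on fadrozole replicates 1, 2 and 3. These groups overlapped, with a difference of 0.42 ± 0.36 and a 95% interval from -0.46 to 1.301 in limma (unadjusted p = 0.286, adjusted p = 0.999 over all named genes). That interval holds both no difference and the value of nfil3-5. The ratio of nfil3-5 to nfil3-6 within an array overlapped too, at -0.07, 0.10 and 0.80 on control and 0.82, 0.42 and 0.76 on fadrozole replicates 1, 2 and 3.

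The period gene per2, which light induces in zebrafish, was measured by 2 probe sets. On the first probe set the deposited ratios were 1, 1.84 and 0.806 on control replicates 1, 2 and 3 and 0.905, 1.70 and 1.14 on fadrozole replicates 1, 2 and 3. On the second they were 0.980, 1.19 and 1 on control and 0.468, 1.07 and 1.13 on fadrozole replicates 1, 2 and 3. The first was highest on replicate 2 of both groups, and the second was low on fadrozole replicate 1 alone. Their differences were 0.08 ± 0.35 and -0.34 ± 0.40 on the log2 scale. For the mean of both probe sets the difference was -0.13 ± 0.32, with a 95% interval from -0.91 to 0.65 (limma, unadjusted p = 0.701, adjusted p = 0.999) and a two-sided exact permutation p of 0.8. Without fadrozole replicate 1 it was 0.15 ± 0.29, so its direction rests on that array.

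The period gene per3 varied far more between arrays of a group than between groups. Its deposited ratios were 0.324, 1 and 1.24 on control replicates 1, 2 and 3 and 3.31, 0.266 and 2.11 on fadrozole replicates 1, 2 and 3. Fadrozole arrays held both the highest and the lowest value of all 6. The difference was 0.74 ± 1.11, with a 95% interval from -1.97 to 3.45 (limma, unadjusted p = 0.529, adjusted p = 0.999) and a two-sided exact permutation p of 0.6, where 3 against 3 arrays cannot go below 0.1. Without fadrozole replicate 2 it was 1.92 ± 0.66, which did not pass limma's adjusted test (adjusted p = 0.959, unadjusted 0.034). Without fadrozole replicate 1 it was -0.0062 ± 1.12.

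The spread within groups differed widely among the 4. Whether a small spread entered the choice of ciarta and nfil3-5 is not known, so their spread is a description. The within-group SD on the log2 scale was 0.21 for nfil3-5, 0.36 for per2, 0.51 for ciarta and 1.62 for per3, against a median of 0.53 over all named genes. By this measure nfil3-5 lay at the 13.8th percentile of named genes, per2 at the 33.9th, ciarta at the 48.6th and per3 at the 95.4th. The precision of per3 was therefore much poorer than that of the other 3 genes.

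Other genes of the clock were grouped by role into 7 lists, which held 42 measured genes beyond the 4 above, of 83 listed. Of these 42, 22 were higher and 20 lower on fadrozole arrays, with a median log2 difference of 0.01. The median over all named genes was -0.00016 and 50% of them were lower. By limma's adjusted test 0 of the 42 passed, and at an unadjusted p under 0.05, 2 were higher and 1 was lower. Among all named genes 4.09% passed that threshold, 2.12% higher and 1.98% lower. The groups did not overlap for 5 of the 42, 3 higher and 2 lower, against 3.93% and 3.89% of all named genes. As no gene passed the adjusted test, the values that follow are measurements of single genes.

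**Figure D2:**
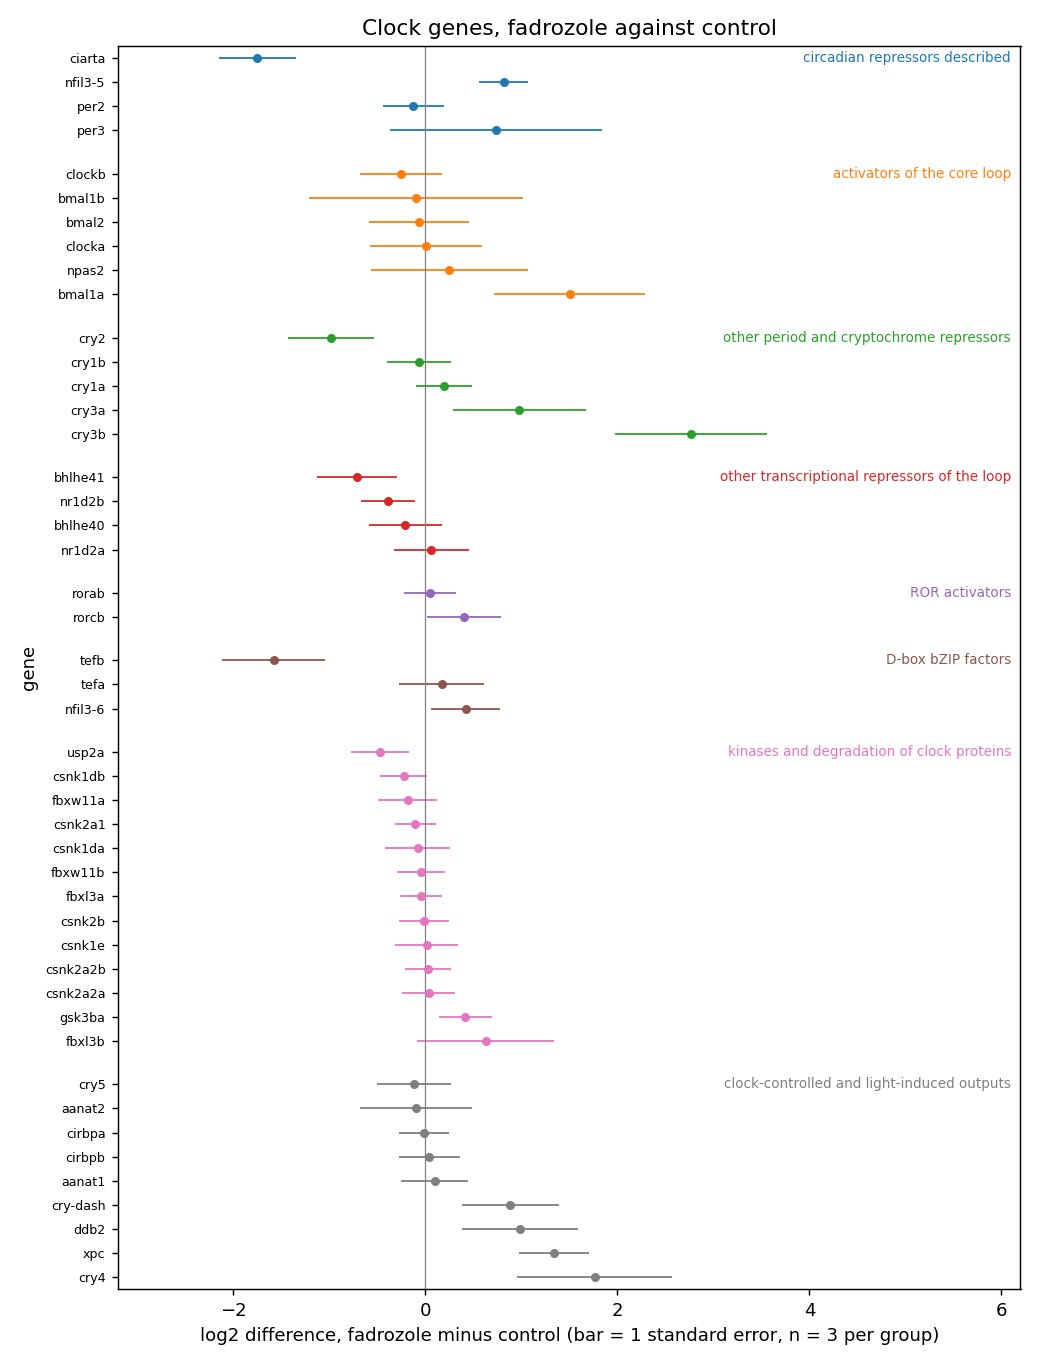
Log2 difference, fadrozole minus control, of the 4 circadian repressors and the 42 other measured clock genes, grouped by role. Points are differences from the limma fit and bars are 1 standard error (n = 3 per group). The genes for kinases and degradation of clock proteins lie between -0.47 and 0.63, and cry3b lies highest at 2.77.

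Of the 6 measured activators of the loop, 3 were higher and 3 lower, with a median difference of -0.03. Their leading member by p was bmal1a, a gene for the partner of CLOCK, at 1.503 ± 0.79 with no overlap between groups. That value included control replicate 1 at -2.74 against -0.05 and 0.14 on control replicates 2 and 3. The other activators were closer to 0, with clockb at -0.26 ± 0.43, npas2, which encodes a relative of CLOCK, at 0.25 ± 0.82 and bmal2 at -0.06 ± 0.52. The 2 measured ROR genes, whose products activate Bmal1 in mammals, were rorcb at 0.40 ± 0.39 and rorab at 0.05 ± 0.27.

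The cryptochrome genes listed as repressors, 5 in number, had a median of 0.20, with 3 higher and 2 lower. The genes cry4, cry5 and cry-dash were counted with the clock-controlled and light-induced genes instead. The gene cry3b was at 2.77 ± 0.79 (limma, unadjusted p = 0.0131, adjusted p = 0.945), with log2 levels of 0.20, -2.11 and 0.14 on control and 2.43, 2.98 and 1.13 on fadrozole replicates 1, 2 and 3. All 3 fadrozole arrays were above the controls for cry3b, and control replicate 2 was far below the other controls. The gene cry2 was lower without overlap, at -0.98 ± 0.45, and both of its probe sets were lower, at -1.05 ± 0.65 and -0.91 ± 0.36. Its log2 levels were 0.15, -0.06 and 0.12 on control and -0.36, -0.52 and -1.86 on fadrozole replicates 1, 2 and 3. Fadrozole replicate 3 thus lay far below the other fadrozole arrays for cry2. The remaining named members were cry3a at 0.98 ± 0.70 and cry1a at 0.20 ± 0.30. The genes per1a and per1b, the closest relatives of the measured period genes, are not analysed here.

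The 4 measured genes for other transcriptional repressors of the loop had a median of -0.30, with 3 lower and 1 higher. The basic helix-loop-helix repressor genes bhlhe41 and bhlhe40 were at -0.71 ± 0.42 and -0.21 ± 0.38. The REV-ERB genes nr1d2b and nr1d2a, whose products repress Bmal1 in mammals, were at -0.39 ± 0.28 and 0.06 ± 0.39. On all 4 the groups overlapped.

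Among the D-box factors, tefb, which encodes an activator at the elements that NFIL3 proteins bind, was at -1.58 ± 0.54 (limma, unadjusted p = 0.0261, adjusted p = 0.999). Its log2 levels were 0.20, -0.28 and 0.01 on control and -1.15, -0.89 and -2.77 on fadrozole replicates 1, 2 and 3, without overlap. Its 2 probe sets were at -2.01 ± 0.51 and -1.15 ± 0.67, and the groups overlapped on the second. The paralogue tefa, which light induces in zebrafish, was at 0.17 ± 0.44.

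Of the 13 genes for kinases and protein degradation in the loop, 8 were lower, with a median of -0.04. The named members were usp2a at -0.47 ± 0.30, gsk3ba at 0.42 ± 0.28, csnk1db at -0.23 ± 0.25 and fbxl3b at 0.63 ± 0.71. Of 9 clock-controlled or light-induced genes, 6 were higher, with a median of 0.10. The DNA repair gene xpc was at 1.34 ± 0.36 (limma, unadjusted p = 0.0106, adjusted p = 0.945), but its 2 probe sets were at 2.28 ± 0.40 and 0.39 ± 0.92. The genes cry4, ddb2, whose product recognises ultraviolet damage in DNA, and cry-dash were at 1.77 ± 0.81, 0.98 ± 0.60 and 0.89 ± 0.50. The 2 probe sets of cry-dash were at 1.68 ± 0.79 and 0.10 ± 0.84. For cry4, control replicate 1, at 2.10, lay among the fadrozole arrays, at 1.96, 2.05 and 2.37.

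Glucocorticoids induce period genes in mammals, so 6 measured genes that glucocorticoids induce there were set beside the clock. Of these, 2 were higher and 4 lower, with a median of -0.19. The named members were pdk4 at 0.90 ± 0.49, tsc22d3 at -0.37 ± 0.28, klf9 at -0.53 ± 0.56 and fkbp5 at -0.40 ± 0.55. None of the 6 had an unadjusted p under 0.05 in limma, a threshold that 4.09% of all named genes passed. With so few genes, that count is not read as a result. The groups did not overlap for pdk4, as for 7.82% of all named genes.

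Markers of other cells that a dissected telencephalon may hold were read in the same fit. The pineal gland, which lies next to the telencephalon and has a strong clock, was represented by 7 of 20 listed pineal and photoreceptor markers. Of these, 2 were higher and 5 lower, with a median of -0.10, and the pineal opsin gene exorh was at -0.03 ± 0.46, otx5 at -0.19 ± 0.89, aanat2 at -0.10 ± 0.58 and gngt2a at -0.17 ± 1.04, while gngt2b was at -1.54 ± 0.68. The mean log2 level of these 7 markers ran from -0.96 to 0.55 over control arrays and from -0.85 to 0.02 over fadrozole arrays. The groups thus overlapped for this mean. For red blood cells (9 of 16 markers), leukocytes (10 of 12), myelin (5 of 10) and neurons (8 of 14) the medians were 0.23, -0.17, 0.03 and -0.03. The named markers of red blood cells were gata1a at 1.302 ± 0.55, hbaa1 at -0.49 ± 0.28, slc4a1a at 0.60 ± 0.50 and hbbe3 at -0.76 ± 0.66. Those of leukocytes were ptprc at 1.54 ± 0.56, spi1b at -0.75 ± 0.36, lyz at -1.28 ± 0.91 and apoeb at -0.34 ± 0.42. Those of myelin were mbpa at 0.52 ± 0.23, sox10 at 1.26 ± 0.84, cldnk at -0.18 ± 0.27 and olig2 at -0.20 ± 0.50. For neurons they were gap43 at -0.16 ± 0.21, elavl4 at 0.20 ± 0.27, syt1a at -0.13 ± 0.25 and elavl3 at -0.08 ± 0.23. In each of the lists of cell markers 1 gene had groups without overlap, against 7.82% of all named genes. These were gngt2b, spi1b and gap43, lower, and gata1a and mbpa, higher. Only ptprc had an unadjusted p under 0.05 (limma, unadjusted p = 0.0342, adjusted p = 0.999), against 4.09% of all named genes. In pooled tissue, fewer cells of a type and less RNA per cell cannot be told apart, and the part of such cells in the values of ciarta and nfil3-5 was not tested.

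The numbers of the slides in the labels fall into 2 runs, with replicates 1 and 3 of both groups in the larger run and replicate 2 of both groups in the smaller. Within the larger run ciarta differed by -1.28 and within the smaller by -2.69, and nfil3-5 by 1.01 and 0.43. As the groups did not overlap for either gene, any split of the arrays had to keep their direction. Only the sizes, which differed between the runs, are described. The gene per2 differed by -0.18 and -0.03, and per3 by 2.01 and -1.81, turning its direction. The smaller run has 1 array per group, so it gives no error of its own.

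Because control replicate 2 was the highest control for ciarta, nfil3-5 and per2, replicate 2 was also compared with replicates 1 and 3, with the group as a term in limma. This comparison was chosen after the values were seen. It does not use the contrast of fadrozole with control. No named gene passed the adjusted test, 0% of 8793, while 8.85% had an unadjusted p under 0.05. Of all named genes 49.5% were higher and 50.5% lower on replicate 2. The repressor genes bhlhe40, bhlhe41, nr1d2a and nr1d2b were all higher on replicate 2, by 0.76 ± 0.25, 0.86 ± 0.26, 0.56 ± 0.36 and 0.46 ± 0.21. The D-box factor tefa was higher by 0.97 ± 0.24, nfil3-6 by 0.54 ± 0.32 and tefb by 0.34 ± 0.60. Of the 6 activators of the loop 5 were lower, with bmal1b at -2.33 ± 0.77, clocka at -0.84 ± 0.55, bmal2 at -0.81 ± 0.47, clockb at -0.81 ± 0.32 and npas2 at -0.17 ± 0.97, against bmal1a at 0.64 ± 0.88. With the other array scalings 4 of the 6 activators were lower, against 32.8% to 38.1% of all named genes, and the 4 repressor genes were higher, against 61.9% to 67.2%. Adjusted p in limma for the genes of this paragraph lay between 0.455 for tefa and 0.968 for npas2.

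The gaps of other lists on replicate 2 are given without a test, with medians relative to all named genes. Of the cryptochrome genes listed as repressors 4 of 5 were higher, at a median of 0.21, but cry3b was at -0.54 ± 0.90. Genes for kinases and degradation of clock proteins had 10 of 13 higher and a median of 0.09, and clock-controlled and light-induced genes had 6 of 9 lower and a median of -0.27. Such counts depend on the scaling. With no shift removed, 13 of the 13 were higher, against 67.2% of all named genes, and 4 of the 9 were lower, against 32.8%. The 2 ROR genes were split, with a median of -0.08. Among markers of other cells, myelin had 4 of 5 higher and a median of 0.41, and the pineal and photoreceptor markers had 5 of 7 higher and a median of 0.28. For red blood cells, leukocytes and neurons the medians were -0.21, -0.22 and 0.07. The part of such cells in the values of the clock genes on replicate 2 was not tested.

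The 4 repressor genes and tefa were higher on replicate 2 within each group taken alone. For tefa the gap was 1.21 within control and 0.73 within fadrozole arrays, and for bhlhe41 it was 1.22 and 0.50. The gene bmal1b was lower on replicate 2 within both groups, by -3.85 and -0.81, as were clockb, by -0.85 and -0.76, bmal2, by -1.33 and -0.29, and clocka, by -1.60 and -0.09. Of the other activators, bmal1a was higher within both, by 1.25 and 0.03, and npas2 changed sign, at 0.83 and -1.17. The D-box factor tefb changed sign too, at -0.39 and 1.07, while nfil3-6 was higher by 0.78 and 0.30. The share of all named genes with the same sign in both groups was not counted. The replicate 2 comparison above pools these same gaps, so like signs within the groups are no separate support for it. With the shifts removed, the genes ciarta and nfil3-5 had gaps of opposite sign in the groups. On replicate 2 ciarta was higher by 1.17 among controls but at -0.24 among fadrozole arrays, and nfil3-5 was higher by 0.52 among controls and at -0.06 among fadrozole arrays. The shifts removed were -0.07, 0.15 and -0.09 on fadrozole replicates 1, 2 and 3. The gaps of clocka and nfil3-5 among fadrozole arrays were smaller in size than the shift of 0.15 alone. Their signs there thus depend on the array scaling. For ciarta the deposited ratio was 0.418 on fadrozole replicate 2, between 0.365 and 0.484 on replicates 1 and 3. Its gap of -0.24 there thus came mostly from the shift removal, and its sign is not read. For per2 the gaps were 0.27 and 0.42. For per3 they were 0.28 and -3.54. Over both groups the term was 0.46 ± 0.40 for ciarta, 0.23 ± 0.25 for nfil3-5, 0.34 ± 0.31 for per2 and -1.63 ± 1.07 for per3, with adjusted p from 0.684 to 0.798 in limma. Replicate number, slide run and anything else that set replicate 2 apart, such as the day or hour of collection, cannot be told apart here.

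**Figure D3:**
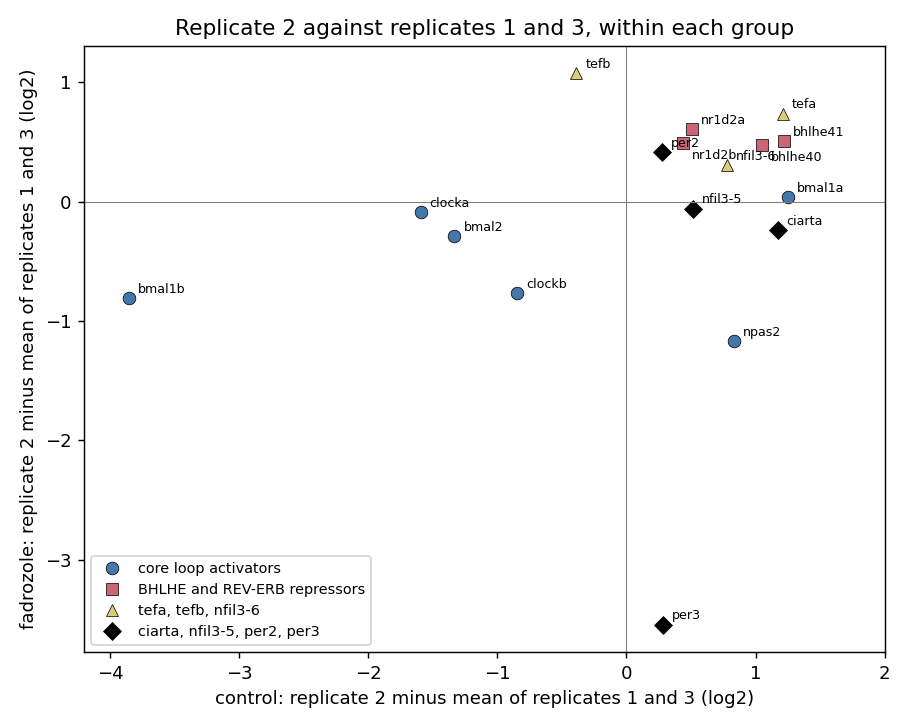
Gap between replicate 2 and the mean of replicates 1 and 3 on the log2 scale, with array shifts removed, for single genes. The horizontal axis is within control arrays and the vertical axis within fadrozole arrays. The 4 genes bhlhe40, bhlhe41, nr1d2a and nr1d2b lie above 0 on both axes, bmal1b, bmal2, clocka and clockb lie below 0 on both, and ciarta lies at 1.17 among controls and -0.24 among fadrozole arrays.

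The genes whose levels over the 6 arrays were nearest to those of each repressor were found by the root mean square difference of log2 levels, each gene centred on its own mean. This measure includes the difference between the groups, on which ciarta and nfil3-5 were picked, so genes with a like difference come out near them. The nearest genes of ciarta themselves differed by -1.53, -1.55 and -1.28 and those of nfil3-5 by 0.86, 0.81 and 0.89, in the order named below. For ciarta these were capgb, igsf5a and pmp22b, at 0.36, 0.40 and 0.41, against a median of 1.08. For nfil3-5 they were ptgesl, gmppb and ech1, at 0.09, 0.12 and 0.13, against a median of 0.64. For per2 they were exoc3, srsf2b and hnrnpa0l, at 0.08, 0.10 and 0.10, against a median of 0.57. For per3 they were kifap3b, itga5 and vstm2lb, at 0.41, 0.41 and 0.42, against a median of 1.45. All these medians are over the other named genes, with clone-derived names left out. Among the clock genes described, nfil3-6 lay 0.35 from nfil3-5 and 1.14 from ciarta, and per2 lay 0.56 from nfil3-5 and 0.90 from ciarta. As the medians themselves were 0.64 for nfil3-5 and 1.08 for ciarta, the shorter distances to nfil3-5 are not read as likeness.

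**Figure D4:**
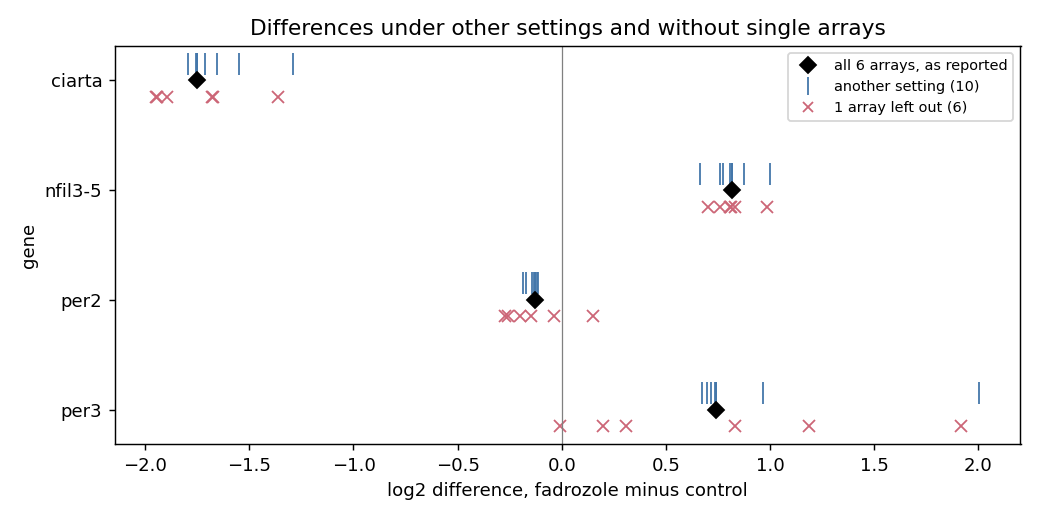
Log2 difference, fadrozole minus control, of the 4 genes with all 6 arrays (diamonds), under 10 other settings (bars) and with 1 array left out (crosses). The values of ciarta stay between -1.95 and -1.29 and those of nfil3-5 between 0.66 and 1.00, while per2 and per3 each cross 0 without fadrozole replicate 1.

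The difference of ciarta ran from -1.95 to -1.29 over 16 alternatives and that of nfil3-5 from 0.66 to 1.00. The plot of differences under other settings shows that neither crossed 0, which their picking and the lack of overlap between groups had largely fixed. For per2 the range was -0.27 to 0.15 and for per3 -0.0062 to 2.00, with adjusted p of at least 0.841 in limma throughout.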

How the data were processed

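RNA from pooled telencephalons was hybridised to 1-colour arrays. The deposited values are linear ratios, from the values themselves: the median of the 3 control arrays was 1 in all 15617 rows of the table. How arrays were scanned, summarised to probe sets and scaled is not given in the labels.

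The ratios were taken to log2, and each array's median deviation from the probe set means over 6 arrays was removed. The 115 control probe sets were left out. GEO's platform annotation gave 1 symbol to 10795 probe sets, several to 135 and none to 4572. For 10711 of the first, RefSeq's gene table (GRCz12tu) held the gene number, and it served for names only. A gene's level is the mean of its probe sets. Two-sided tests came from lmFit and eBayes (limma 3.58.1, R 4.3.3), and p-values were adjusted by Benjamini-Hochberg over all 8793 genes or 15502 probe sets. The procedure was tested on simulated data.

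Genes and lists were chosen with earlier results of these data known. Named were the 4 measured genes, up to 4 genes with the smallest p per list, and the 3 nearest genes to each repressor, clone-derived names skipped. The marker exorh is named as a fixed marker, and clocka and bmal1b were named for the slide runs after their values were seen. Brightness is lost, so no filter on dim signals was possible, and precision is limited by how few arrays there are. Nothing says how independent the pools were, so p-values measure the spread between arrays.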

Additional observations from a re-analysis of the deposited data

How the results depend on the processing

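Of 16 alternatives, the differences of ciarta and nfil3-5 kept their direction in all, and moved by less than 1 within-group SD. Both genes were picked on this contrast and their groups did not overlap, so leaving out an array could hardly turn their direction. A trend in the variance prior, the median of probe sets and blocks for replicate or slide run cannot move these differences. Their stability is thus a description only. With 1 array left out, ciarta ran from -1.95 to -1.36, nfil3-5 from 0.70 to 0.98, per2 from -0.27 to 0.15 and per3 from -0.0062 to 1.92. The direction of per2 (0.15) and per3 (-0.0062) turned only without fadrozole replicate 1. The count of named genes with an unadjusted p under 0.05 and at least 1.5-fold change was 359. It was 178 with quantile normalisation and ran from 366 to 560 with 1 array left out, highest without control replicate 2. Over probe sets it was 655, with 338 under quantile normalisation and 646 to 994 with 1 array left out, highest again without control replicate 2. The count at an adjusted p under 0.05 was 0 in each of these limma fits.

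Same-numbered arrays of the groups had deviations that correlated across probe sets with r of 0.06, 0.19 and 0.09 for replicates 1, 2 and 3. Between different numbers r ran from -0.12 to 0.03. Each of the 6 arrays correlated best with its own number, a weak hint from the data that the design does not state. Deviations add to 0 over the 3 arrays of a group, so these 6 matches are not independent. Replicate 2 of both groups also shared a slide run. With the replicate block the differences were -1.75 ± 0.42 for ciarta, 0.82 ± 0.26 for nfil3-5, -0.13 ± 0.29 for per2 and 0.74 ± 1.102 for per3. The counts with the block were 478 genes and 842 probe sets at the unadjusted threshold, with 0 at an adjusted p under 0.05. Relative to all genes, the gap of replicate 2 for the activators of the loop had a list median of -0.80, and of -0.91 with quantile normalisation. For the other repressors of the loop it was 0.67, and 0.72, and for the D-box factors 0.55, and 0.57. Plain median centring and no shift removal change each array by a constant, so they cannot move these relative values. These 3 other array scalings were chosen after seeing the data. They put the median gap of all genes at 0.17 to 0.30. An offset of 0.1 before the log changed no direction. Without brightness, what signal over background limits could not be measured.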
